A study of Rattus norvegicus with 9 samples.

Results

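The 8 genes described here belong to the acute response of cells to stimulation and stress, and were followed through rat heart libraries. They are Myc, Egr1, Nr4a1, Junb, Ier2, Ier3, Dusp1 and Gdf15. They were taken by name from the deposited gene tables. Each library had been assembled separately, so a name was missing in some libraries: of the 8 genes in 9 libraries, 54 values stood under the gene's own name and 18 were summed from the transcripts of the locus. All 8 genes were found, of 24677 loci of at least 200 nt, and all 8 were among the 14125 loci that passed the filter on low values.

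RNA sequencing of Sprague-Dawley rat hearts was compared in 3 groups of 3 libraries. TAC libraries were made from the left ventricle of adults after transverse aortic constriction, a narrowing of the aorta that loads the left ventricle with pressure. Fetal libraries were made from the ventricle at embryonic day 18, each from a numbered litter. Sham libraries were made from the left ventricle of adults that had the same operation without the constriction. Adult RNA was isolated on a column kit and fetal RNA with Trizol. The fetal group thus differs from both adult groups in age, sampled region and isolation at once, and these cannot be told apart. The sources used here give neither the time after surgery nor the adults' ages. The adult labels do not say that each library is a separate animal, so p-values measure the spread between these libraries, which may be technical.

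Immediate early genes are transcribed within minutes of a signal, without new protein synthesis, through transcription factors that already sit in the cell, such as serum response factor and the cyclic AMP response element-binding protein. Many of them encode transcription factors that switch on a later wave of genes, and others, such as the MAP kinase phosphatases, shut the signal down again. In heart muscle they respond to stretch, catecholamines and hypertrophic agonists, and their RNAs are short-lived, so a level at sampling depends on the moment of sampling. Gdf15 is not an immediate early gene in the strict sense. It encodes a secreted cytokine of the TGF-beta superfamily that is induced by cell stress, through p53 and the integrated stress response.

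The sequenced fragments implied by the deposited confidence bounds came to a median per tested locus of 57 to 102 in TAC libraries, 156 to 243 in fetal libraries and 98.5 to 179 in sham libraries. The first principal component (57.1% of the variance) separated fetal from adult libraries, while on the second (17.0%) the libraries numbered 1 lay apart from those numbered 2 and 3. The libraries numbered 1 also differed in the shortest assembled feature, 43 nt against 63 nt in the other libraries. They were treated as a separate library batch in alternative fits only. The main fit held the groups alone, with no batch term and no replicate block. Between TAC and sham libraries, 1 locus was called higher and 1 lower. Between fetal and sham libraries 3185 were called higher and 3275 lower, and between TAC and fetal libraries 3241 higher and 3227 lower. Those splits moved with the scaling, to 4027 higher and 2705 lower (fetal minus sham) and 2484 higher and 4382 lower (TAC minus fetal) with upper quartile scaling. The labelled tissue was checked on the 5 of 15 listed heart muscle markers that have a symbol in the files (Actc1, Mb, Nppa, Nppb and Des). Each was above 0 in all 9 libraries, and their levels in rescaled FPKM summed to 44583 to 52408 in TAC, 17609 to 139332 in fetal and 44228 to 48696 in sham libraries. The highest fetal sum rests on Actc1 in fetal replicate 2 (135411, against 14034 and 18890 in fetal replicates 1 and 3), and the next was 22228. In fetal minus sham, Mb (-4.32) and Des (-1.65) were lower by limma, and Nppa was higher (2.02, adjusted p = 0.0491), a call lost without TAC replicate 3, any 1 fetal library or sham replicates 2 or 3 (adjusted p between 0.0635 and 0.154).

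Promoter windows from RefSeq (build GRCr8, 250 bases before and 50 after the transcript start) were at hand for Egr1, Nr4a1, Junb, Ier2, Dusp1 and Gdf15. The 250 bases before the start are printed for the 5 immediate early genes among them, because response elements of this kind are known from immediate early genes. Capitals mark matches, on either strand, to the CArG box (the binding site of serum response factor), to the cyclic AMP response element TGACGTCA and to its core TGACG.
Egr1 (chr18:26736828-26737077, + strand): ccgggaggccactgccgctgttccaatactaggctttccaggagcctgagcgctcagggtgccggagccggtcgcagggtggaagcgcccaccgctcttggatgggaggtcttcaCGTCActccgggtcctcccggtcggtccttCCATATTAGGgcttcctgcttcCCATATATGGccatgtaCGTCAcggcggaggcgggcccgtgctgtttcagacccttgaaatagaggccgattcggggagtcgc
Nr4a1 (chr7:134259888-134260137, + strand): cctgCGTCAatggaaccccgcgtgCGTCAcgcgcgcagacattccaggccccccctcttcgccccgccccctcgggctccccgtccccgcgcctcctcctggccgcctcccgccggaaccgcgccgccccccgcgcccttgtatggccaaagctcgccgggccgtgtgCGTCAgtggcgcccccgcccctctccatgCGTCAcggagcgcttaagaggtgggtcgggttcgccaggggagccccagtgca
Junb (chr19:40080876-40081125, + strand): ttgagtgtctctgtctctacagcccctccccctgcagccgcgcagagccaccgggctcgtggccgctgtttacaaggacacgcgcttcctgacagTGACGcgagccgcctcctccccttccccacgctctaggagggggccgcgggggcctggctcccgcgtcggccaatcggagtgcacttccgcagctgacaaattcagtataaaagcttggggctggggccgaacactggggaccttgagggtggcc
Ier2 (chr19:40399123-40399372, + strand): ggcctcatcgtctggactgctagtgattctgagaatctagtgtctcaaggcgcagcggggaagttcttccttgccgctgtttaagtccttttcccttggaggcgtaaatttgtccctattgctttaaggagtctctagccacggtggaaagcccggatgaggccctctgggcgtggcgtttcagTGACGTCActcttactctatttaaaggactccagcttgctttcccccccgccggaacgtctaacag
Dusp1 (chr10:17184603-17184852, + strand): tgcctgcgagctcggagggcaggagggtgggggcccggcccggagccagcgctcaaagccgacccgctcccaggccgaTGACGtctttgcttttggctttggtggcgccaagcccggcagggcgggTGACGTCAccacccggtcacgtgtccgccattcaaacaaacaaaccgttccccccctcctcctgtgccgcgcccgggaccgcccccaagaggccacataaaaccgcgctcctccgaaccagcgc

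Each of these windows held the core. It was present in 21.2% of the 33469 promoter windows of the same length in RefSeq. Egr1, which encodes a zinc finger factor induced by growth factors and stretch, held 2 CArG boxes and 2 cores. A CArG box was found in 1.64% of all windows, and Egr1 was the only one of the 6 genes with one. Ier2 and Dusp1 each held the full palindrome TGACGTCA, which 1.83% of all windows hold and which contains 2 overlapping matches of the core. The palindrome lay 66 to 59 bases before the start of Ier2 and 124 to 117 bases before that of Dusp1, which held another core farther upstream. Nr4a1 held 4 cores, and Junb held 1. The 2 windows of Gdf15 held neither element, and one of them held 5 matches of the GC box GGGCGG, which 33.1% of all windows hold. These matches describe the sequence and not occupancy.

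Between TAC and sham libraries none of the 8 genes passed the threshold, an adjusted p below 0.05 (limma with Benjamini-Hochberg adjustment over all tested loci), where 0.0142% of all loci did (0.00708% higher and 0.00708% lower). At an unadjusted p below 0.05 there were 2, Myc and Ier3, against 4.33% of all loci. Between fetal and sham libraries 5 of 8 were called, against 45.7% of all loci. Only Myc was higher in fetal libraries (22.5% of all loci were higher), and Dusp1, Ier2, Nr4a1 and Gdf15 were lower (23.2% of all loci were lower). Of these Gdf15 passed the filter on low values only through its sham libraries. Between TAC and fetal libraries 3 of 8 were called, against 45.8% of all loci, with Dusp1 and Ier2 higher in TAC (22.9% of all loci) and Myc lower (22.8%). At an unadjusted p below 0.05 the counts were 7 of 8 for fetal minus sham and 3 of 8 for TAC minus fetal, against 52.8% of all loci in each.

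Counted by libraries that do not overlap, TAC libraries lay above sham libraries for Myc and Ier3 (4.28% of all loci) and below them for Gdf15 (4.58%). Fetal libraries lay above sham libraries for Myc and Ier3 (29.2% of all loci) and below them for Ier2, Nr4a1, Junb, Dusp1 and Gdf15 (28.8%). TAC libraries lay above fetal libraries for Ier2 and Dusp1 (27.7% of all loci) and below them for Myc (28.4%). The 3 comparisons share libraries with each other. All levels below are rescaled FPKM, a level per transcript length, and all differences are on the log2(rescaled FPKM + 1) scale, which understates changes of weakly expressed genes.

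**Figure D1:**
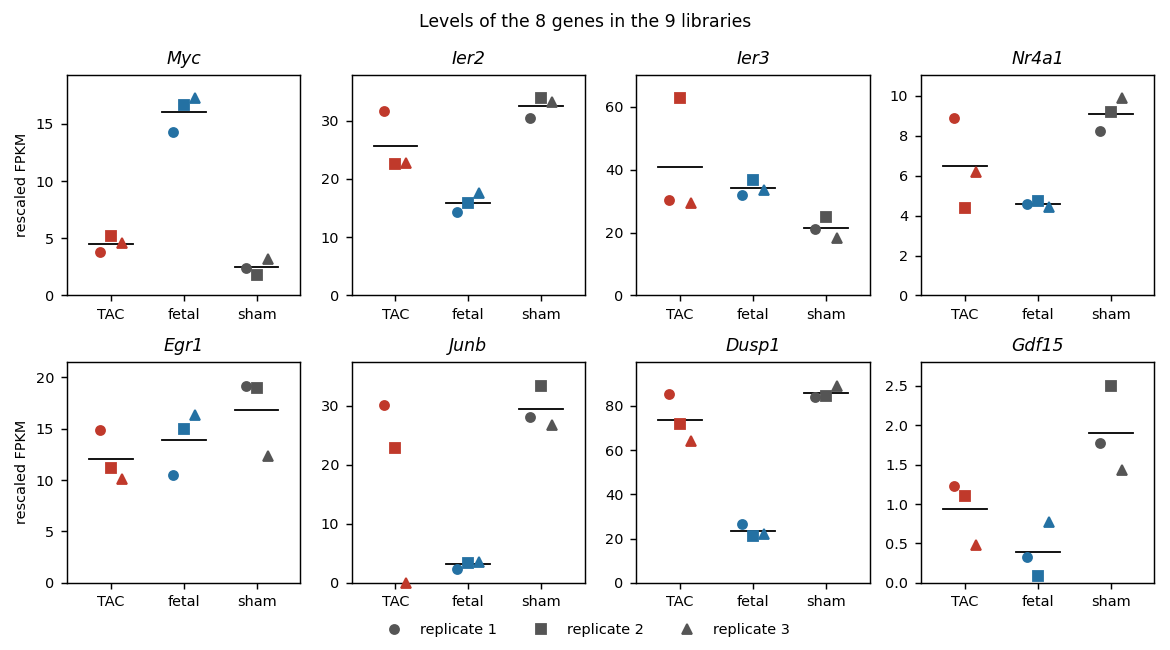
Level of each gene (vertical axis, rescaled FPKM, starting at 0) in TAC, fetal and sham libraries. Each point is a library, its shape gives the replicate number, and the line is the group mean, left out for Junb in TAC because 1 library is listed at 0. Myc stands highest in the fetal libraries (14.3 to 17.2) and Dusp1 lowest there, and Junb is lower there than in every adult library except the TAC library listed at 0.

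Myc encodes the bHLH factor that drives ribosome production and cell growth. The locus (rn4 chr7:98953141-98957835) had 3.80, 5.18 and 4.55 in TAC replicates 1 to 3, 14.3, 16.6 and 17.2 in the fetal libraries, and 2.38, 1.76 and 3.21 in sham replicates. The 3 groups did not overlap with each other, with fetal libraries highest and sham libraries lowest. Fetal libraries averaged 16.1 ± 1.54 and sham libraries 2.45 ± 0.729 (SD, n = 3 each), a log2 difference of 2.32 (SE 0.213, limma adjusted p = 5.95e-05). TAC libraries averaged 4.51 ± 0.692, which is 1.84 times the sham mean, with a log2 difference of 0.69 (SE 0.213). That difference had an unadjusted p of 0.011 and a limma adjusted p of 1, so it was not called. Against fetal libraries Myc was lower in TAC by a log2 difference of -1.63 (SE 0.213, limma adjusted p = 4.13e-04). In replicates 2 and 3 alone the differences were 0.78 for TAC minus sham, 2.39 for fetal minus sham and -1.61 for TAC minus fetal, with the same calls. The adult values rest on few fragments, 180 over the TAC libraries and 117 over the sham libraries, against 2078 over the fetal libraries. In sham replicate 3 most of Myc lay on an assembled transcript that overlaps the reference transcript, 2.59 against 0.623. With several transcripts at the locus, the 34 fragments implied for that library are below its number of reads, and so is the sham total. TAC minus sham ran from 0.35 to 1.26 over the other settings and was called in none.

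Egr1 (rn4 chr18:27343566-27347352) had 14.9, 11.2 and 10.1 in TAC replicates, 10.5, 14.98 and 16.3 in fetal replicates, and 19.2, 18.9 and 12.4 in sham replicates. The ranges of all 3 groups overlapped. Its log2 differences were -0.44 (SE 0.245) for TAC minus sham, -0.25 for fetal minus sham and -0.19 for TAC minus fetal, and the limma adjusted p-values were 1, 0.436 and 0.573. The 95% interval of fetal minus sham ran from -0.81 to 0.31. Egr1 rests on 140 to 892 fragments per library, so counting error (3.35% to 8.45%) was small beside the spread between libraries. In replicates 2 and 3 alone fetal minus sham was 0.03.

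Nr4a1 (rn4 chr7:140012806-140020587) encodes the orphan nuclear receptor Nur77, and had 8.91, 4.36 and 6.18 in TAC replicates, 4.58, 4.71 and 4.43 in fetal replicates, and 8.25, 9.18 and 9.89 in sham replicates. Every fetal library lay below every sham library, at 4.57 ± 0.143 against 9.10 ± 0.823 (SD, n = 3 each), and the TAC libraries ran from below the fetal range (replicate 2) into the sham range (replicate 1). The fetal level was lower by a log2 difference of -0.86 (SE 0.235, limma adjusted p = 0.0168). The call was lost without fetal replicate 3 (adjusted p = 0.0522) and without sham replicate 3 (0.0521). TAC minus sham was -0.48 (SE 0.235, limma adjusted p = 1), and TAC minus fetal was 0.38 (adjusted p = 0.221). In TAC replicate 2 and fetal replicates 2 and 3 part of the level lay on assembled transcripts that reach beyond the reference transcript. Counting the reference transcript alone, fetal minus sham was -1.60 with an adjusted p of 0.0787.

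Junb encodes an AP-1 subunit. It had 30.1, 22.8 and 0 in TAC replicates, 2.41, 3.42 and 3.602 in fetal replicates, and 28.2, 33.5 and 26.7 in sham replicates. Fetal libraries lay at 3.14 ± 0.639 against 29.4 ± 3.56 in sham libraries (SD, n = 3 each), far below every sham library. TAC replicate 1 lay within the sham range and replicate 2 below it, and TAC replicate 3 is listed at 0. In that library another assembled feature of 979 nt, at 156 rescaled FPKM and 1235 implied fragments, overlaps the end of Junb (rn4 chr19:24833040-24841484 against chr19:24831535-24833318). The libraries do not mark strand, so reads from overlapping features cannot be told apart. The value at 0 widened the spread of the fit, and fetal minus sham was -2.88 with an SE of 1.11 and a limma adjusted p of 0.0629. With the replicate number as a block the adjusted p was 0.0488.

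With values listed at 0 in 1 library alone left out, a choice made after seeing the data, Junb in fetal minus sham kept its log2 difference of -2.88 and had an SE of 0.197 and a limma adjusted p of 2.6e-05. TAC minus sham became -0.15, against -1.74 (SE 1.11, adjusted p = 1) with the value at 0, and TAC minus fetal became 2.73 (adjusted p = 5.93e-05), against 1.14 (adjusted p = 0.441). Leaving out TAC replicate 3 as a whole gave adjusted p-values of 4.83e-05 for fetal minus sham and 1.39e-04 for TAC minus fetal. Leaving out TAC replicate 1 gave 0.044 for fetal minus sham.

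Ier2 encodes a short nuclear protein of the immediate early response. The locus (rn4 chr19:25159275-25160796) had 31.7, 22.6 and 22.8 in TAC replicates, 14.4, 15.8 and 17.6 in fetal replicates, and 30.53, 33.9 and 33.2 in sham replicates. Fetal libraries were below all adult libraries, and TAC replicates 2 and 3 were below all sham libraries while TAC replicate 1 lay among them. The fetal mean of 15.9 ± 1.64 stood against a sham mean of 32.5 ± 1.76 (SD, n = 3 each), a log2 difference of -0.99 (SE 0.165, limma adjusted p = 0.00151). With reference transcripts alone it was -0.48 and not called (adjusted p = 0.508). TAC libraries averaged 25.7 ± 5.20. Their log2 difference was 0.64 against fetal libraries (SE 0.165, adjusted p = 0.0126) and -0.35 against sham libraries (SE 0.165, adjusted p = 1). The call against fetal libraries was lost in replicates 2 and 3 alone (0.42, adjusted p = 0.0934), with equal library totals (0.146), with upper quartile scaling (0.0789) and with reference transcripts alone (0.350). In sham replicate 3 most of Ier2 lay on an assembled transcript that overlaps the reference transcript, 22.3 against 10.8.

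Ier3 encodes a stress-inducible protein that prolongs ERK signalling and affects survival. The locus (rn4 chr20:3076568-3077748) had 30.51, 62.7 and 29.5 in TAC replicates, 31.9, 36.6 and 33.6 in fetal replicates, and 21.0, 25.02 and 18.2 in sham replicates. All TAC and all fetal libraries lay above all sham libraries, and TAC replicate 2 stood far above the other TAC libraries. TAC minus sham was 0.83 (SE 0.277, unadjusted p = 0.0166, limma adjusted p = 1). Without TAC replicate 2 it was 0.48. Fetal minus sham was 0.65 (SE 0.277, limma adjusted p = 0.086), not called, with an adjusted p of 0.0371 under the replicate block. It also passed without TAC replicate 2 (0.0105) and with upper quartile scaling (0.0255). TAC minus fetal was 0.17 (limma adjusted p = 0.652), and turned to -0.17 without TAC replicate 2.

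**Figure D2:**
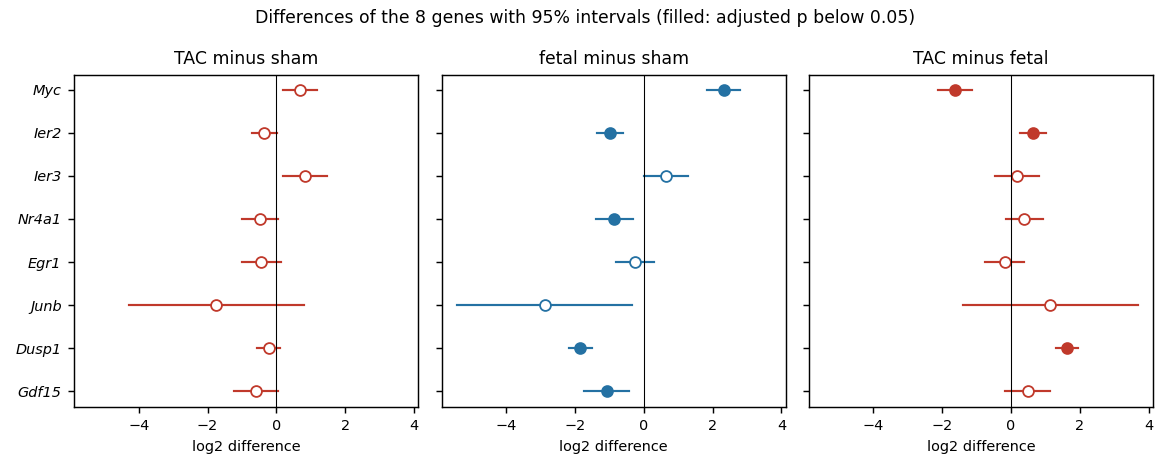
Log2 differences of the 8 genes (horizontal axis, log2(rescaled FPKM + 1) scale) with their 95% intervals from limma, for TAC minus sham, fetal minus sham and TAC minus fetal. Filled points have an adjusted p below 0.05. No point is filled for TAC minus sham, 5 are for fetal minus sham and 3 are for TAC minus fetal, and the interval of Junb is the widest because 1 TAC library is listed at 0.

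Dusp1 encodes a nuclear phosphatase that inactivates p38, JNK and ERK. The locus (rn4 chr10:16942901-16945694) had 85.2, 71.96 and 63.9 in TAC replicates, 26.6, 21.0 and 22.0 in fetal replicates, and 83.9, 84.2 and 89.2 in sham replicates. All fetal libraries lay far below all adult libraries, and TAC replicates 2 and 3 lay below all sham libraries. The mean was 23.2 ± 2.96 in fetal libraries and 85.8 ± 2.96 in sham libraries (SD, n = 3 each), a ratio of 0.271. The log2 difference was -1.85 (SE 0.146, limma adjusted p = 2.61e-05), and -1.96 in replicates 2 and 3 alone. TAC libraries averaged 73.7 ± 10.8, higher than fetal libraries by 1.62 (SE 0.146, adjusted p = 5.33e-05) and at -0.23 from sham libraries (SE 0.146, adjusted p = 1). The interval of TAC minus sham ran from -0.56 to 0.11. Both calls of Dusp1 held under all 23 other settings, as did those of Myc. It was the most abundant of the 8 genes in the adult groups, above 86.1% of all tested loci in TAC libraries and above 88.3% in sham libraries. In fetal libraries Ier3 had the highest mean of the 8 (34.0 ± 2.36, SD, n = 3), and Dusp1 was above 63.7% of all tested loci.

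Gdf15, the secreted cytokine (rn4 chr16:19310853-19313465), was the least abundant of the 8 genes in each group. It had 1.22, 1.10 and 0.485 in TAC replicates, 0.322, 0.0841 and 0.771 in fetal replicates, and 1.77, 2.50 and 1.44 in sham replicates. Sham libraries were highest and overlapped with neither TAC nor fetal libraries. The filter value of 1 was reached in all sham libraries, in TAC replicates 1 and 2, and in no fetal library. Gdf15 thus entered the test only through the group where it is high, and its call as lower in fetal libraries depends on that entry. TAC libraries averaged 0.936 ± 0.396, fetal libraries 0.392 ± 0.349 and sham libraries 1.90 ± 0.546 (SD, n = 3 each). Fetal minus sham was -1.07 (SE 0.285, limma adjusted p = 0.0146) and TAC minus sham was -0.59 (SE 0.285, adjusted p = 1). These levels rest on 13 implied fragments over the TAC libraries, 15 over the fetal libraries and 64 over the sham libraries. In fetal replicate 2 a single fragment gave the value of 0.0841, with an exact 95% Poisson interval of 0.00213 to 0.469 that covers counting error only.

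The call of Gdf15 between fetal and sham libraries was lost without fetal replicate 1 (adjusted p = 0.0539), fetal replicate 2 (0.069) or sham replicate 2 (0.0537), and in replicates 2 and 3 alone (0.0931). In sham replicate 2 all 34 fragments lay on an assembled transcript that ends at position 19314214, beyond the reference transcript, which is itself listed at 0 there. All 3 TAC libraries and sham replicates 1 and 3 held a separate assembled feature in that stretch beyond Gdf15. These features had 22 to 137 implied fragments. Counting reference transcripts alone, fetal minus sham of Gdf15 was -0.55 with an adjusted p of 0.561. How much of the sham level belongs to Gdf15 was not tested.

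Levels per transcript length were compared among the 8 genes within each group. In TAC libraries the means ran from Dusp1 through Ier3 (40.9 ± 18.9, SD, n = 3), Ier2, Egr1, Nr4a1 and Myc to Gdf15, with Junb left out because of its value at 0. Of these neighbours, the libraries of Ier3 and Ier2 overlapped, as did those of Nr4a1 and Myc. In fetal libraries the order was Ier3, Dusp1, Myc, Ier2, Egr1, Nr4a1, Junb and Gdf15, where Myc overlapped with Ier2 and Ier2 with Egr1. In sham libraries it was Dusp1, Ier2, Junb, Ier3 (21.4 ± 3.45, SD, n = 3), Egr1, Nr4a1, Myc and Gdf15, with overlaps between Ier2 and Junb, Ier3 and Egr1, and Myc and Gdf15. Myc was above 25.3% of all tested loci in TAC libraries, 52.6% in fetal libraries and 16.2% in sham libraries.

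**Figure D3:**
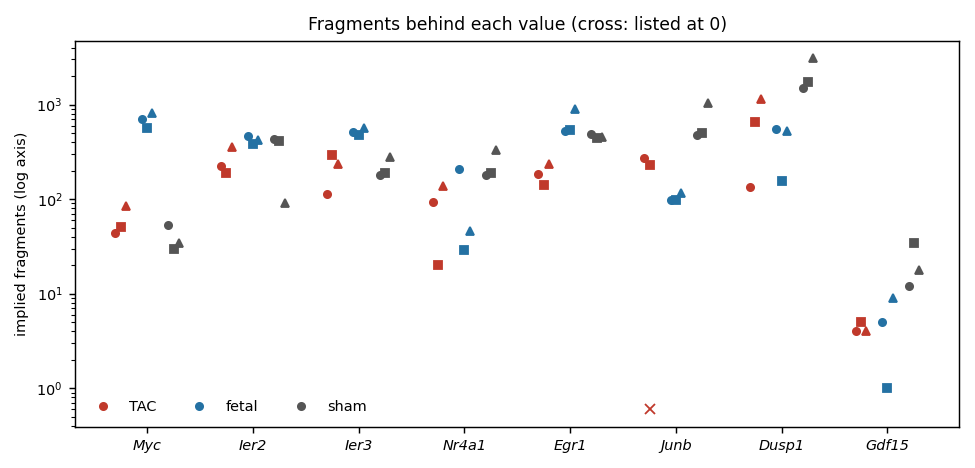
Fragments implied by the deposited confidence bounds for each gene and library (vertical log axis), with the cross at the foot for the TAC library in which Junb is listed at 0. Colours give TAC, fetal and sham libraries. Gdf15 lies between 1 and 34 fragments in every library, and Dusp1 reaches 3086.

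A wider list of 69 immediate early genes, of which 46 were tested and 7 are described above, was set beside these genes. Between TAC and sham libraries none of the 46 was called by limma, 2 had an unadjusted p below 0.05 (2 to 5 when 1 library was left out), and the median log2 difference was 0.03, against -0.01 over all tested loci. That median changed sign to -0.04 with equal library totals, where the median of all loci was -0.07. Between fetal and sham libraries 6 were higher and 16 lower (limma, adjusted p below 0.05), 47.8% of the list against 45.7% of all loci. The median was -0.27, against 0.04 over all loci, and stayed negative with equal library totals (-0.13) and with upper quartile scaling (-0.12). Among the 39 tested genes not described above, 5 were higher and 13 lower.

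Cebpb, a bZIP factor of inflammatory and acute-phase genes, had 28.8, 37.2 and 15.7 in TAC replicates, 3.10, 8.14 and 8.21 in fetal replicates, and 40.4, 31.1 and 32.4 in sham replicates. Its log2 difference between fetal and sham libraries was -2.33 (limma adjusted p = 0.00145). The small Maf factor Maff was lower by -1.58 (adjusted p = 1.74e-04). Phlda1, a pleckstrin homology-like domain protein, was lower by -1.56 (adjusted p = 0.00733). Bhlhe40, a repressor linked to the circadian clock, was lower by -1.41 (adjusted p = 0.0299), a call that was lost without any 1 fetal library (adjusted p = 0.0661, 0.0735 and 0.0707) and without sham replicate 2 (0.0954) or 3 (0.0752). Dusp4, the nuclear phosphatase related to Dusp1, went the other way from Dusp1. It had 0, 2.20 and 1.77 in TAC replicates, 4.68, 5.72 and 7.03 in fetal replicates, and 1.08, 1.57 and 1.15 in sham replicates. The log2 difference of Dusp4 was 1.58 (limma adjusted p = 0.0147), lost without fetal replicate 3 (adjusted p = 0.0567), and it turned to -0.80 with reference transcripts alone (adjusted p = 0.520).

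TAC minus fetal called 14 of the 46 higher and 5 lower, 41.3% of the list against 45.8% of all loci. Among the largest differences were those of Cebpb (1.93), Dusp4 (-1.70), Phlda1 (1.68), Maff (1.67), Myc (-1.63), Dusp1 (1.62) and Bhlhe40 (1.45). Of these Bhlhe40 was lost without TAC replicate 2 (adjusted p = 0.076), TAC replicate 3 (0.0886) or any 1 fetal library (0.0606, 0.0669 and 0.0644), and Dusp4 turned to 0.61 with reference transcripts alone.

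**Figure D4:**
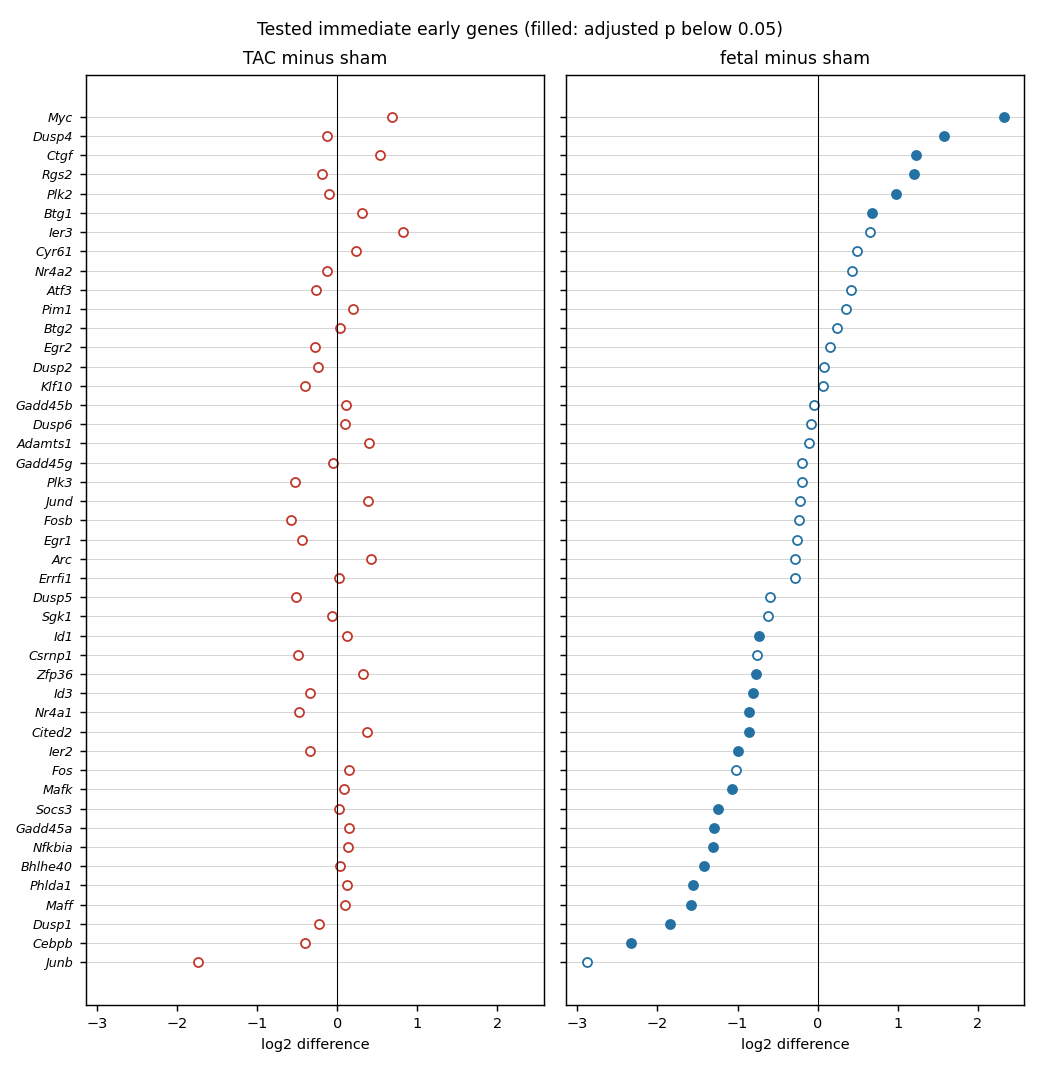
Log2 difference (horizontal axis) of 45 of the 46 tested immediate early genes for TAC minus sham and fetal minus sham, ordered from top to bottom by the fetal minus sham value. Filled points have an adjusted p below 0.05. No gene is filled for TAC minus sham, and 21 of those plotted are for fetal minus sham, 6 higher and 15 lower.

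Upstream of these genes, 12 of 27 listed genes of ERK signalling and serum response factor were tested. Mkl2, a coactivator of serum response factor, was the only one called between fetal and sham libraries (1.27, limma adjusted p = 0.0392), and was lost under the replicate block (0.0587), in replicates 2 and 3 alone (0.0708), without any 1 fetal library (0.0811, 0.101 and 0.0813) and without sham replicate 3 (0.116). With reference transcripts alone Mkl2 turned to -0.68. Between TAC and fetal libraries 1 of the 12 was called higher and none lower. In both comparisons that was 8.33% of the list, against 45.7% (fetal minus sham) and 45.8% (TAC minus fetal) of all loci. With upper quartile scaling the split of TAC minus fetal was 0 higher and 4 lower, and that of fetal minus sham 3 higher and 0 lower. None was called between TAC and sham libraries by limma, and none had an unadjusted p below 0.05.

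Around Myc, 6 of 14 listed genes of the Myc network and 16 of 30 listed Myc target genes were tested. Between fetal and sham libraries Mycn, the paralog used in embryonic heart, rose with Myc, with 4.52, 4.14 and 3.58 in TAC replicates, 18.7, 17.0 and 19.4 in fetal replicates, and 3.79, 5.13 and 3.88 in sham replicates. Its log2 difference was 1.88 (SE 0.177, limma adjusted p = 6.8e-05). Mxd3, a Max partner found in proliferating cells, was higher by 2.63 (adjusted p = 7.41e-05). Mlx, the partner of the glucose-sensing Mondo factors, was lower by -0.60 (adjusted p = 0.0234), a call lost with equal library totals (0.125), with upper quartile scaling (0.0855) and in replicates 2 and 3 alone (0.0821). It was also lost without fetal replicate 2 (0.0577), fetal replicate 3 (0.0713), sham replicate 1 (0.0643) or sham replicate 2 (0.0794).

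Of the 16 Myc target genes 8 were higher in fetal than in sham libraries and none was lower. That was 50% of the list, against 22.5% of all loci called higher and 45.7% called in either direction. The median log2 difference was 0.57. Cdca7, a cell cycle gene, was higher by 3.602, Npm1, a nucleolar chaperone, by 1.77, Nop58, a core protein of box C/D small nucleolar particles, by 1.70, and Nme1, a nucleoside diphosphate kinase, by 1.48 (limma adjusted p between 1.89e-05 and 0.00471). Between TAC and sham libraries none of the 16 was called and none had an unadjusted p below 0.05, and the median was -0.01. Between TAC and fetal libraries 8 were lower and none was higher, with Cdca7 (-3.38), Npm1 (-1.70), Nop58 (-1.68) and Nme1 (-1.55) differing most. These were 50% of the list, against 22.8% of all loci called lower and 45.8% called in either direction. With upper quartile scaling 13 were lower, and with reference transcripts alone 5 were lower (and 5 higher in fetal than in sham libraries). Of the network genes, Mxd3 (-2.62), Mycn (-1.93) and Myc were lower in TAC than in fetal libraries.

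**Figure D5:**
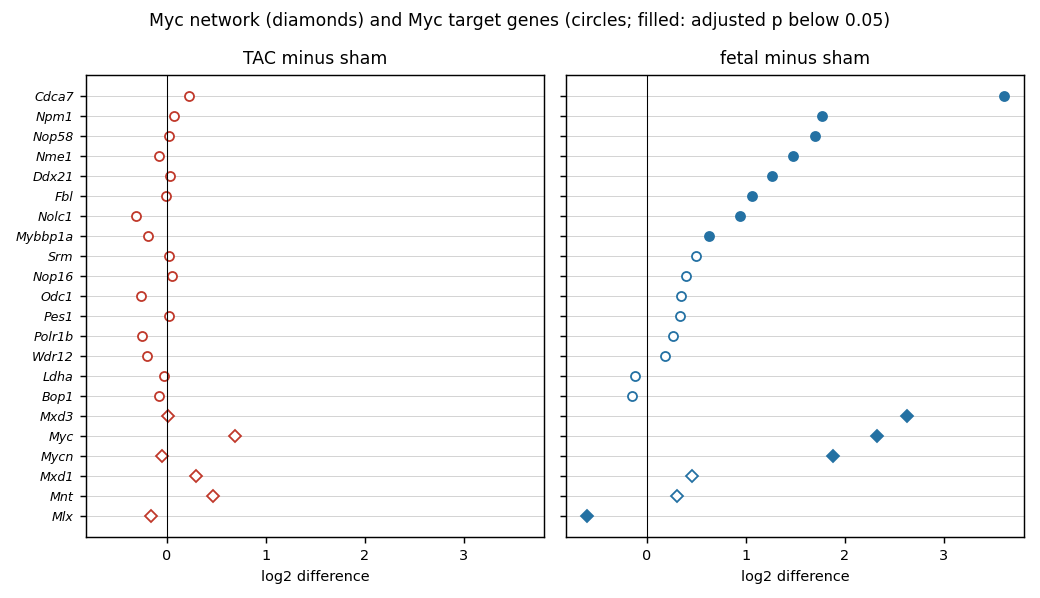
Log2 difference (horizontal axis) of the tested Myc network genes (diamonds) and Myc target genes (circles) for TAC minus sham and fetal minus sham. Filled points have an adjusted p below 0.05. None is filled for TAC minus sham. For fetal minus sham 8 target genes are filled, all to the right of 0, together with Mxd3, Myc and Mycn to the right and Mlx to the left.

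Beside Gdf15 stood 41 listed genes of the integrated stress and p53 responses, of which 29 were tested. Between TAC and sham libraries none was called by limma and none had an unadjusted p below 0.05. The median of 0.03 turned to -0.03 with equal library totals, where the median of all loci was -0.07. Between fetal and sham libraries 7 were higher and 8 lower, 51.7% of the list against 45.7% of all loci. Psat1 and Phgdh, enzymes of serine synthesis, were higher by 3.06 and 2.38 (limma adjusted p = 1.05e-04 and 1.46e-04). Nupr1, a stress-inducible nuclear protein, was lower by -2.67 (adjusted p = 0.00334), and Atf5, a bZIP factor of the stress response, by -2.45 (adjusted p = 5.45e-05). The list therefore split. The median was -0.09 and changed sign with equal library totals (0.07) and with upper quartile scaling (0.10). The median of all loci was 0.04, 0.19 and 0.22 in these settings, above that of the list in each. Between TAC and fetal libraries 10 were higher and 8 lower, 62.1% of the list against 45.8% of all loci. Psat1 (-2.96), Atf5 (2.51), Phgdh (-2.39) and Herpud1 (2.26), a component of endoplasmic reticulum-associated degradation, changed most.

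Of 12 listed heat shock genes 7 were tested, and 3 were lower and none higher in fetal than in sham libraries. That was 42.9% of the list, against 23.2% of all loci called lower and 45.7% called in either direction. The number higher was 1 under the replicate block and 2 with upper quartile scaling. The cochaperone Bag3 had 227, 323 and 267 in TAC replicates, 32.8, 47.5 and 54.8 in fetal replicates, and 224, 225 and 236 in sham replicates, a log2 difference of -2.35 (limma adjusted p = 4.46e-05). Hspa1a, the inducible Hsp70, differed by -2.32 (adjusted p = 0.0022), and Hsf1, the heat shock transcription factor, by -0.77 (adjusted p = 0.00373). None of the 7 was called between TAC and sham libraries by limma, and none had an unadjusted p below 0.05. Between TAC and fetal libraries Bag3 (2.59), Hspa1a (1.87) and Hsf1 (0.87) were higher. Hsp90aa1 was lower (-2.04, adjusted p = 0.0441), a call lost without any 1 of TAC replicates 2 and 3, the fetal replicates and sham replicate 2, with adjusted p-values between 0.0523 and 0.138.

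Cell type markers moved with the same comparison, fetal minus sham, in which 22.5% of all loci were called higher and 23.2% lower. Called in either direction were 77.8% of the tested macrophage and neutrophil markers and 85.7% of fibroblast markers, against 45.7% of all loci. The shares were 60% for endothelial, 66.7% for smooth muscle and 40% for erythroid markers. Of macrophage and neutrophil markers 9 of 16 were tested, and 7 were lower in fetal than in sham libraries. Their summed level was 301 to 491 in TAC libraries, 66.9 to 82.7 in fetal libraries and 289 to 513 in sham libraries. Lyz2 (-3.01), C1qa (-2.68), Csf1r (-2.09) and C1qc (-1.72) were lowest relative to sham, C1qc losing the call without fetal replicate 3 (limma adjusted p = 0.0524). The difference was positive for 2 of the 9. Between TAC and fetal libraries 7 were higher and 1, S100a8, was lower. That call was lost without TAC replicate 1 or 2 or any 1 fetal library (adjusted p between 0.0622 and 0.0983). Mpo, below the filter, was at 0 in all TAC and all sham libraries and in no fetal library. S100a8 was at 0 in 2 TAC libraries. Of fibroblast markers 7 of 10 were tested, with 5 lower, among them Dpt (-3.57), Dcn (-2.999) and Clec3b (-2.39), and Postn higher (4.40). With reference transcripts alone Dcn turned to 1.43 (limma adjusted p = 0.6795) and Clec3b lost the call (-1.91, adjusted p = 0.4655). The fibroblast sums were 1517 to 1617 in TAC libraries, 400 to 609 in fetal libraries and 1056 to 1517 in sham libraries. Of endothelial markers 5 of 10 were tested, with 3 lower (Vwf, Tek and Esam). Both Tek and Esam lost the call without fetal replicate 2 (adjusted p = 0.118 and 0.0546), fetal replicate 3 (0.111 and 0.0569), sham replicate 1 (0.102 and 0.0692) or sham replicate 2 (0.0684 and 0.0591), and with both other scalings. Tek alone lost it without TAC replicate 2 (0.0513) or sham replicate 3 (0.0668), and Esam alone without fetal replicate 1 (0.0513). Vwf turned to 1.60 with reference transcripts alone (adjusted p = 0.526). The endothelial sums were 249 to 359 in TAC libraries, 126 to 225 in fetal libraries and 217 to 333 in sham libraries. Smooth muscle markers (3 of 6 tested, 2 higher) summed to 128 to 223 in TAC libraries, 1567 to 1919 in fetal libraries and 129 to 320 in sham libraries. Erythroid markers (5 of 10 tested, 2 higher) summed to 4956 to 10077 in TAC libraries, 17037 to 27189 in fetal libraries and 5014 to 12527 in sham libraries. Hbz was at 0 in all adult libraries, and Hbe1 in 2 TAC and 2 sham libraries. In whole tissue, fewer cells of a type and less RNA per cell cannot be told apart, and the part of cell composition in the lower Dusp1, Junb, Ier2, Nr4a1 and Cebpb levels of fetal libraries was not tested. Between TAC and sham libraries no marker of any of these lists was called.

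The 9 libraries share the fetal to adult difference and the distance of the libraries numbered 1 from the others. Over them Ier2 and Nr4a1 had a Pearson's r of 0.91 on the log2 scale, and 0.77 after the group means were removed. Ier3 and Nr4a1 had -0.77 on both measures, with TAC replicate 2 highest for Ier3 and lowest for Nr4a1. Myc and Dusp1 had -0.96, and -0.32 after the group means were removed.

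The loci whose levels followed each gene most closely over the 9 libraries were found by Pearson's r on the log2 scale, among tested loci with a symbol and a mean of at least 5. They are a description over points that share the same group differences and the same distance of the libraries numbered 1 from the others. Myc was followed by Pmf1 (0.99), Slc22a17 (0.99) and Wbp11 (0.99), and Dusp1 by Mrrf, LOC502894 and Isca1, each at 0.99. For Ier2 the closest were Sdhaf2 (0.97), Med16 (0.97) and Znf771 (0.97), for Nr4a1 Ap4b1 (0.97) and Mpp7 (0.95), for Junb Rabep2 (0.94), LOC688599 (0.93) and Ust (0.92), and for Gdf15 Cryl1 (0.94), Faf1 (0.92) and Cript (0.92). The matches of Junb include its TAC replicate 3 listed at 0. LOC688599 was at 0 in that library and in all fetal libraries, and Mpp7 in TAC replicates 2 and 3 and all fetal libraries. These r values thus rest in part on values at 0. Ier3 was followed by Spred2 (0.93), which restrains ERK signalling, by Etv3 (0.91), an ETS factor, and by Dvl2 (0.90). Egr1 had the loosest match, with the ERK phosphatase gene Dusp5 at 0.86, Q8R492_RAT at 0.77 and RGD1310591 at 0.75. Dusp5 had 13.0, 10.4 and 7.15 in TAC replicates, 7.80, 8.38 and 12.3 in fetal replicates, and 18.2, 15.9 and 10.6 in sham replicates. After the group means were removed the closest loci were others, such as Cdr2 (0.97) for Myc, Nr1h3 (0.99) for Ier3, Hlx (0.96) for Egr1 and Nup85 (0.97) for Dusp1.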

How the data were processed

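RNA was measured in 9 rat heart libraries, 3 each of TAC, fetal and sham, prepared with an Illumina TruSeq kit that does not mark strand. The authors deposited FPKM per assembled gene and transcript. TopHat 1.3.1, Cufflinks 1.0.3, Cuffdiff and build rn4 come per the submitters' processing notes. The deposited FPKM carry a constant that differs between libraries (median of values above 0 from 2733810 to 45986300), so values were rescaled by median of ratios to a mean library total of 1000000.

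The 39492 reference transcripts were joined into 29328 loci, transcripts that shared a gene in at least 5 libraries forming 1 locus. Each locus was valued as the sum of its reference and assembled transcripts. Tested were loci of 200 nt or more that reached a rescaled FPKM of 1 in 3 or more libraries. limma 3.58.1 in R 4.3.3 was fitted to log2(rescaled FPKM + 1) over the 3 groups (6 residual degrees of freedom), with Benjamini-Hochberg adjustment over the tested loci; every adjusted p named as such comes from this fit or from its alternatives. Fragments were recovered from the deposited confidence bounds: 85.5% to 94.4% of low values (4 to 30 fragments) came out whole within 0.02. For loci with several transcripts they are below the number of reads, and intervals from them cover counting error only. The scripts were tested on simulated data.

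The 8 genes and all lists were chosen with earlier results of these data known. Besides the 8 genes, the text names up to 8 immediate early genes and up to 4 genes of each other list per comparison, the called ones with the largest differences, and the 3 loci most like each gene; further genes are named where a result turns on them, and a few items that this rule selects are not reported here. Same-numbered libraries of different groups deviated together in every pair (correlation 0.15 to 0.52). Libraries numbered 2 and 3 did so across numbers as well (0.13 to 0.28), while those numbered 1 deviated against both. These correlations set the libraries numbered 1, the batch assumed in the alternative fits, against the others and do not show pairing by number. The replicate block thus takes a pairing that was not established, the labels giving litter numbers for fetal libraries only. Alternatives were the pseudocount, the filter, the scaling, the block, the batch, the variance model, the groups in the fit, the value of a locus and leaving out each library. Leaving out lone values at 0 was added after seeing the data.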

Additional observations from a re-analysis of the deposited data

How the results depend on the processing

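Of 548 results of the 8 genes under 23 other settings, 517 kept direction and side of the threshold, 13 lost the call, 12 gained it and 6 reversed; the cause was not tested. The reversed ones were Ier2 (0.17) and Gdf15 (0.0477) in TAC minus sham with reference transcripts only, Egr1 in fetal minus sham in replicates 2 and 3 alone (0.0286), and Ier3 in TAC minus fetal with equal library totals (-0.0557), with upper quartile scaling (-0.0933) and without TAC replicate 2 (-0.17, against a highest value of 0.36 without TAC replicate 3). With reference transcripts only, 2 of the 8 genes were called in fetal minus sham, where Ier2 had an adjusted p of 0.508. With that setting loci called were 41 (29 higher, 12 lower) in TAC minus sham, 2018 (725 higher, 1293 lower) in fetal minus sham and 2122 (1390 higher, 732 lower) in TAC minus fetal, against 2, 6460 and 6468. In replicates 2 and 3 alone 11 loci were called in TAC minus sham (7 higher, 4 lower). Leaving out 1 library gave 2 to 5 loci in TAC minus sham, 4994 to 6654 in fetal minus sham and 4975 to 6377 in TAC minus fetal, and 0, 4 to 6 and 3 to 4 of the 8 genes.

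Equal library totals gave 2303 higher and 3652 lower loci in TAC minus fetal. The median of all loci in fetal minus sham was 0.04, against 0.19 with equal library totals, 0.22 with upper quartile scaling and -0.13 with reference transcripts only. In TAC minus fetal it was -0.03, against -0.24, -0.27 and 0.18. With the replicate block 7 of the 8 genes were called in fetal minus sham, Ier3 and Junb (0.0488) being added, and it changed no other call of the 8 genes. Gdf15 could not be tested with a minimum value of 5, nor in TAC minus fetal when the TAC and fetal libraries were fitted alone. Depth limits Gdf15 most, at 1 to 34 fragments per library.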
